A study of Rattus norvegicus with 132 samples.

Results

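The medulla of kidneys from rats labelled RM-HS was compared with the medulla of kidneys from rats labelled HS. The members were taken from the sample titles: 9 RM-HS and 6 HS regions of interest (ROIs) drawn in the medulla, 15 of 132 ROIs in the series. The series used GeoMx digital spatial profiling, in which barcodes on hybridised probes are cut off by light within a drawn region and counted by sequencing. Formalin-fixed, paraffin-embedded kidney sections came from 3 rats in each of 4 groups: RM-HS, HS, RM and Sham. The labels place the series under trauma-induced acute kidney injury but do not spell out RM or HS, and strain, age, dose and time after injury are not given in the sources used here. The probes were designed for mouse transcripts, so the signal of a gene also depends on how well a mouse probe binds the rat transcript. ROIs were drawn by hand, and an ROI holds many cells of several types. Therefore fewer cells of a type and less RNA per cell cannot be told apart.

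The outer part of the medulla holds the thick ascending limb, which reabsorbs salt at a high cost in oxygen, next to collecting ducts and straight vessels. Injured tubule cells are known to switch on immediate early genes, genes for secreted injury proteins and metal-binding proteins within hours, and to lower transport genes. Igfbp1 encodes a secreted protein that binds insulin-like growth factors, and insulin is known to repress the gene. Rasd1 encodes a small G protein of the Ras family first described as induced by dexamethasone, and Atf3 encodes a stress-induced transcription factor of the ATF/CREB family.

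The 9 RM-HS ROIs were all on plate C and the 6 HS ROIs all on plate E. The difference between these groups and the difference between the plates could be separated only through the 9 Sham medulla ROIs, 6 of them on plate C and 3 on plate E, and through the Sham ROIs of the other areas. The well order placed the RM-HS ROIs in 3 runs of consecutive wells and the HS ROIs in 2, with 3 ROIs in each. The labels tie no ROI to an animal, so that several ROIs of a group share an animal, and the p-values over ROIs given throughout are too small. RM-HS ROIs held 838546 to 1832943 reads (median 1564807), against 66598 to 1157391 reads in HS ROIs (median 316815). HS well run 2 stood apart from the others, with 66598 to 138976 reads in its 3 ROIs, while HS well run 1 held 494654 to 1157391. Where a gene described below lost its call without HS run 2, this is stated beside it.

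**Figure D1:**
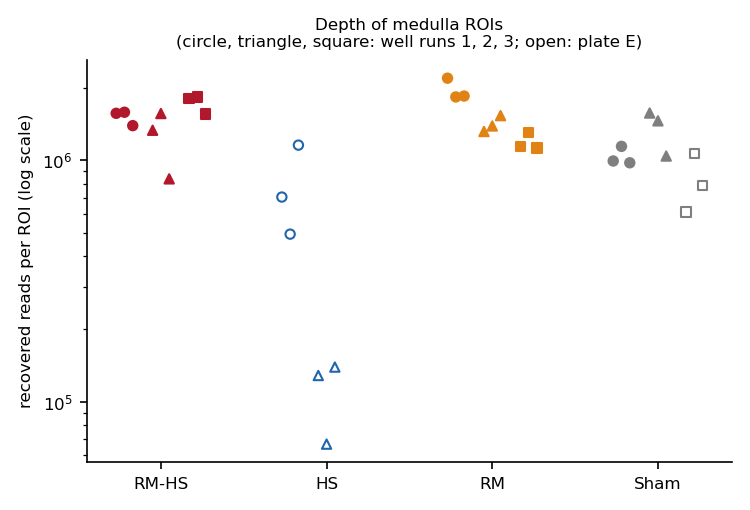
Recovered reads per medulla ROI (log axis) for RM-HS, HS, RM and Sham. Marker shapes give the well run, filled markers plate C and open markers plate E. The 3 ROIs of HS well run 2 lie between 66598 and 138976 reads, below every other medulla ROI.

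Thick ascending limb and proximal tubule markers matched the label of the area, whereas collecting duct and intercalated cell markers did not separate medulla from cortex. The summed signal of the thick ascending limb markers Slc12a1, Kcnj1 and Egf was 992 to 1327 in RM-HS medulla and 851 to 1277 in HS medulla. In the cortex of the same groups the sum was 222 to 579 in RM-HS and 289 to 813 in HS. Proximal tubule markers (Slc34a1, Slc5a2 and Slc22a6, 3 of 4 in the table) summed to 101 to 121 in RM-HS medulla and 89.2 to 138 in HS medulla, against 478 to 1032 and 344 to 1794 in the cortex of RM-HS and of HS. Collecting duct markers (Aqp2, Aqp3 and Hsd11b2) summed to 260 to 376 in RM-HS medulla and 166 to 400 in RM-HS cortex. In HS they summed to 340 to 657 in medulla and 238 to 811 in cortex. Intercalated cell markers (Slc4a1 and Foxi1) had medians of 100 in RM-HS medulla and 96.5 in RM-HS cortex. In HS these medians were 98.6 in medulla and 93.4 in cortex. Of the collecting duct, intercalated cell, podocyte, endothelial, macrophage, neutrophil, red cell and urothelial markers in the table, and of the lists above, none passed limma's test between RM-HS and HS medulla at an adjusted p under 0.05 (885 genes of all passed at an unadjusted p under 0.05).

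The comparison asked which transcripts were higher or lower in RM-HS medulla than in HS medulla. Of 8827 genes tested, 175 passed an adjusted p of 0.05 (1.98%), with 171 higher in RM-HS (1.94%) and 4 lower (0.0453%). The test was limma on log2(signal + 1), with 1 mean for each group and area, a plate term, the well run as a random block and Benjamini-Hochberg adjustment. The 171 rises ran between 0.66 and 3.03 on the log2 scale, and 136 of them were above 1, while the median of all genes was 0.02. Without HS well run 2, 64 genes passed (0.725%), 59 higher and 5 lower, and 61 of them were among the 175. Averaging the ROIs to 1 mean per well run kept 24 of the 175 calls. Of the 48 called genes followed through the settings, 35 lost their call there. Mt2, Spp1, Ctsl, Fth1, Tsc22d1, Klf6, Tmsb4x, Ubb and Atp6v0c were called in all settings except run means. A rise given below without its result for run means may also have been lost there. With quantile normalisation in place of the upper quartile 372 genes were higher and 151 lower. Fitted to medulla ROIs alone, 750 genes passed (8.5%), 609 higher and 141 lower, and without the block 671 were higher and 194 lower. The small number of falls therefore depended on these choices. Signals of RM-HS and HS ROIs did not overlap for 140 of the 175 genes, against 487 of all 8827 genes (5.52%).

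Rasd1 showed the largest rise. Its signal in the 9 RM-HS ROIs was 518 at the lowest, 691 at the median and 876 at the highest, against 36.3, 68.5 and 81.9 in the 6 HS ROIs. Every RM-HS ROI lay far above the highest HS ROI. The fitted difference was 3.03 ± 0.33 (SE, log2, 8.14-fold, adjusted p = 4.94e-12), and 2.64 without HS run 2 (adjusted p = 4.68e-08). Rasd1 was not flagged as different between the plates in Sham medulla, where plate C was 0.20 above plate E (unadjusted p = 0.164). It was called in all 23 alternative settings.

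Igfbp1 signal was 1137, 1478 and 1709 (lowest, median and highest) in RM-HS, against 124, 219 and 302 in HS. The groups did not overlap, and within HS the 3 ROIs of run 1 (median 292) lay above those of run 2 (median 155). The fitted difference was 2.02 ± 0.39 (SE, log2, 4.06-fold, adjusted p = 0.000156), but it was 1.35 with an adjusted p of 0.163 without HS run 2, so that the call rested on that run. It also missed the threshold with 1 mean per well run (adjusted p = 0.143) and after subtraction of the negative probe (adjusted p = 0.0991). In Sham medulla Igfbp1 was 0.73 higher on plate C than on plate E (unadjusted p = 0.0116), the same direction as the difference between RM-HS and HS.

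Atf3 signal was 79.7, 138 and 158 in RM-HS, against 44.2, 53.3 and 58.2 in HS. All 9 RM-HS ROIs lay above the highest HS ROI, and within RM-HS the ROIs of run 2 (median 89.3) were lower than those of run 1 (median 138) and run 3 (median 153). The fitted difference was 1.27 ± 0.34 (SE, log2, adjusted p = 0.0212) and 1.39 without HS run 2 (adjusted p = 0.00846). The Sham plates differed by -0.01. Atf3 was called in 17 of 23 alternative settings and lost its call without RM-HS run 1 or run 3 and without Sham run 1 or run 2.

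**Figure D2:**
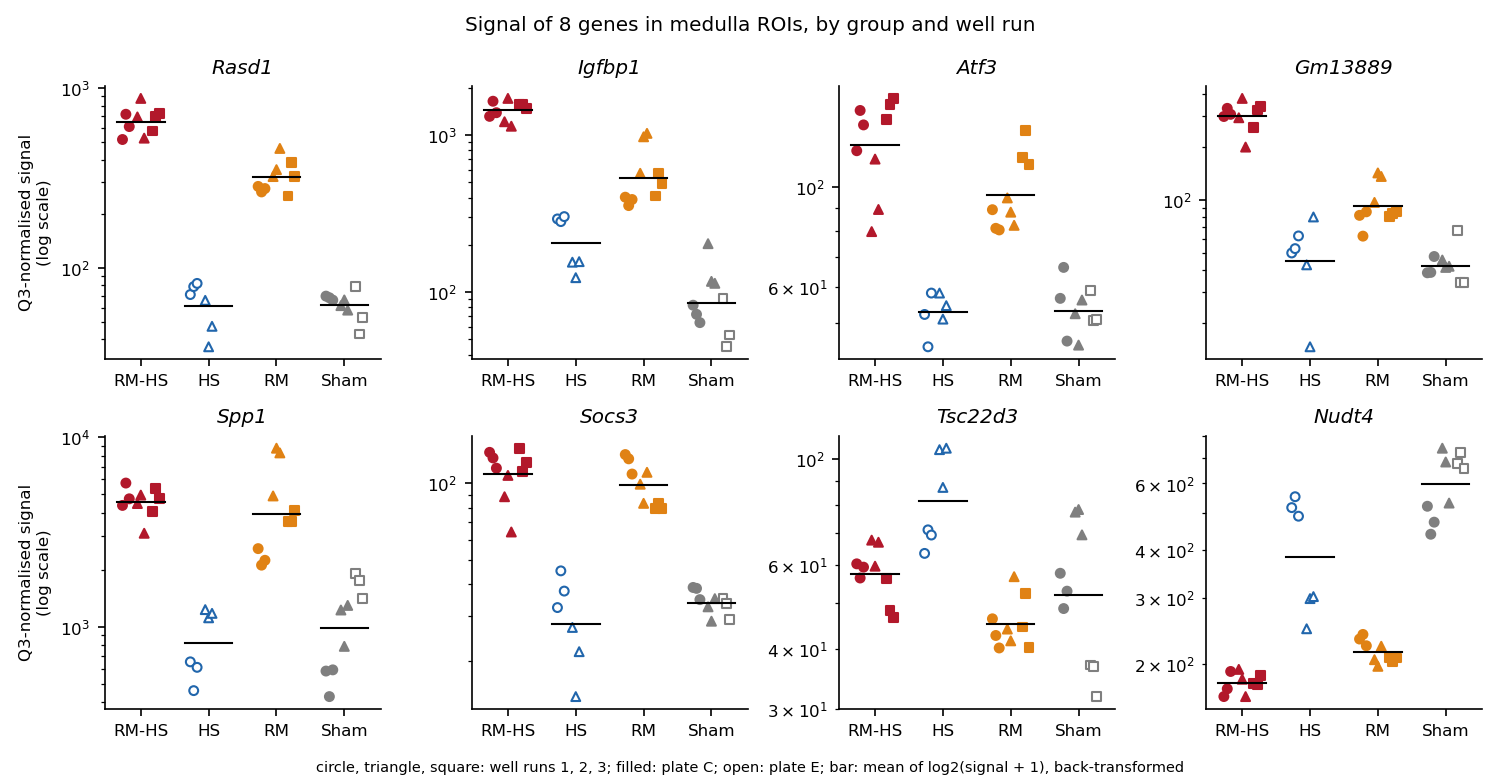
Upper-quartile normalised signal (log axis) of 8 genes in each medulla ROI, for RM-HS, HS, RM and Sham, with the well run as marker shape, plate E as open markers and the mean of log2(signal + 1) as a bar. All 9 RM-HS ROIs lie above the 6 HS ROIs for Rasd1, Igfbp1, Atf3, Gm13889, Spp1 and Socs3 and below them for Nudt4, while Tsc22d3 overlaps.

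Promoter sequences are shown for the gene with the largest rise (Rasd1), for Igfbp1, for the gene with the largest fall (Tsc22d3) and for Zfp36l1, chosen after the search as a gene called in all settings that holds a motif of the AP-1 family. Each runs 5′ to 3′ over 300 bases around 1 start per gene in the RefSeq promoter table for the rat assembly GRCr8, with matched motifs in capitals. Where RefSeq gives a gene several transcripts, this need not be its outermost start: the annotated Rasd1 gene runs on to base 45275279 of chromosome 10 and Zfp36l1 to base 104669815 of chromosome 6, both upstream of the windows shown.
Rasd1, chr10:45267633-45267932, minus strand: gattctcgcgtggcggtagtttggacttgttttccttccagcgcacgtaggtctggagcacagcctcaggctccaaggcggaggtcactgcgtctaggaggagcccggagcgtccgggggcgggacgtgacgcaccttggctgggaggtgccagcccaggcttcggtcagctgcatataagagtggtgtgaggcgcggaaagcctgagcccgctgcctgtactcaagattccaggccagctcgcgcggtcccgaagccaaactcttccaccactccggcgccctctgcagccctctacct
Igfbp1, chr14:86261027-86261326, plus strand: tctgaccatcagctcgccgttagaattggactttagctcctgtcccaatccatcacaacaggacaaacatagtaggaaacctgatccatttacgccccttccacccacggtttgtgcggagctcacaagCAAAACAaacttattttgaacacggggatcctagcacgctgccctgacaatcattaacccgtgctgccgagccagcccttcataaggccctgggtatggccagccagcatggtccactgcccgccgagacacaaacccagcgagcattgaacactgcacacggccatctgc
Tsc22d3, chrX:109066340-109066639, minus strand: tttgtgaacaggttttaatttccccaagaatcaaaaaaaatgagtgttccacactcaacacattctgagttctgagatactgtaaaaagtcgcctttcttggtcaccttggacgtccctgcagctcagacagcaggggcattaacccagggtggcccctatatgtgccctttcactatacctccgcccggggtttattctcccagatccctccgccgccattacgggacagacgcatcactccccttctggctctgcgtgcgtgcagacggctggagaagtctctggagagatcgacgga
Zfp36l1, chr6:104668641-104668940, minus strand: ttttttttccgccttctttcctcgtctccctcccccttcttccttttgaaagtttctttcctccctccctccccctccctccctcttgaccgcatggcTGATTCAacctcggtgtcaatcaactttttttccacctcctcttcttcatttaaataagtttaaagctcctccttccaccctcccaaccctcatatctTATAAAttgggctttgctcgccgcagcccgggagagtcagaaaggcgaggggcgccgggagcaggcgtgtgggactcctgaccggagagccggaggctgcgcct
The 8 motifs searched on both strands were the cyclic AMP response element TGACGTCA, the AP-1 site TGANTCA, the C/EBP-ATF element core TGATGNAAN, the forkhead element GTAAACA, the insulin response element core CAAAACA, the glucocorticoid receptor element core AGAACA, the heat shock element and the TATA box TATAAA. Igfbp1 holds CAAAACA 121 bases before its start, and Zfp36l1 holds TGATTCA 152 and TATAAA 54 bases before its start, while these letters did not occur in the windows of Rasd1 and Tsc22d3. CAAAACA occurs in 6.20% of 27457 rat promoters and in 4 of the 141 called genes with a promoter (2.84%). TGANTCA occurs in 7.33% of all promoters and 6.38% of those of called genes, and TGACGTCA in 1.91% of all and 4.96% of those of called genes. A match is a description of letters and not a binding site.

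Other genes known to respond to glucocorticoids, or to insulin through FOXO factors, were mixed. Of 17 tested on that list, 2 rose (Rasd1 and Igfbp1, the second not without HS run 2), 1 fell (Tsc22d3) and 14 did not pass, with a median of 0.09 beside 0.02 for all genes. The counts of this and all later lists stand beside 1.94% of all genes that rose and 0.0453% that fell. A list without a fall is therefore like the genes as a whole. Tsc22d3 encodes the glucocorticoid-induced leucine zipper protein. Its signal was 46.5, 59.4 and 67.6 in RM-HS, against 63.4, 79.2 and 105 in HS, so that 7 of 9 RM-HS ROIs lay below the lowest HS ROI. The fitted difference was -1.67 ± 0.32 (SE, log2, adjusted p = 0.000143), larger than the -0.81 found without the plate term (adjusted p = 0.0346), and in Sham medulla plate C was 0.83 above plate E (unadjusted p = 1.1e-05). Tsc22d3 was not called with 1 mean per well run. Members that did not pass include Per1, a clock gene (-0.27), Klf9 (-0.02), Zbtb16 (-0.19) and Ddit4, an inhibitor of mTOR signalling (0.98, adjusted p = 0.0594).

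Immediate early genes are transcribed within minutes of a stimulus without new protein synthesis. Of 23 tested, 10 rose, none fell and 13 did not pass, beside 1.94% of all genes that rose, and the median was 1.01. Without HS run 2, 6 rose and the median was 0.57, and without the plate term 14 rose. Zfp36, which encodes an RNA-binding protein that speeds the decay of cytokine transcripts, was 335, 387 and 488 in RM-HS, against 65.9, 104 and 161 in HS. Its ranges were far apart, with a difference of 2.05 ± 0.26 (SE, log2, adjusted p = 5.4e-09). The related Zfp36l1 rose by 1.68 (adjusted p = 1.83e-07). Junb, a subunit of AP-1, was 538, 564 and 710 in RM-HS, against 153, 215 and 344 in HS. No ROI of the groups overlapped, and the difference was 1.65 (adjusted p = 5.53e-05), but 1.15 without HS run 2 (adjusted p = 0.0628). Fosl2 (1.51), Klf6 (1.60) and Jun (1.34, but 0.99 and adjusted p = 0.197 without HS run 2) also rose. Fosb (-0.26), Nr4a1 (-0.42), Egr1 (1.03, adjusted p = 0.1) and Ier2 (1.11, adjusted p = 0.08) did not pass.

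On a list of feedback inhibitors of receptor and kinase signalling, 4 of 14 rose and none fell (median 0.61), and 3 rose without HS run 2 (median 0.49). Of the 4, Rasd1, a small G protein, was already counted in the glucocorticoid list. The others were Socs3, which restrains cytokine receptors that act through JAK and STAT, Dusp6, a phosphatase of ERK, and Spred1 (0.88, but 0.54 and adjusted p = 0.701 without HS run 2). Socs3 was 64.2, 114 and 137 in RM-HS, against 14.5, 29.8 and 45.2 in HS. The lowest HS value was no higher than the negative probe, which was 14.8 to 21.1 in HS ROIs, and no ROI overlapped. The difference was 2.20 ± 0.31 (SE, log2, adjusted p = 8.43e-08), and 1.86 without HS run 2. Dusp6 rose by 1.60 (adjusted p = 0.000335), and by 1.14 without HS run 2 (adjusted p = 0.0186), whereas Dusp1 (-0.63) and Rgs2 (-0.31) did not pass. Dusp6 signal in HS was 3.63, 22.3 and 27.1, also near the negative probe. In the cytokine and NF-kB list 2 of 7 rose (median 0.55), Socs3 and Stat3 (1.19, but 0.86 and adjusted p = 0.178 without HS run 2).

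In the list of p53 targets, growth arrest and cell death, 4 of 10 rose, none fell and the median was 0.48. Without HS run 2 only Gadd45a of these 4 passed. Gadd45a, a stress sensor that slows the cell cycle, was 227, 356 and 386 in RM-HS, against 36.3, 91.3 and 170 in HS. The groups did not overlap, with a difference of 2.34 (adjusted p = 6.39e-09) and 1.42 without HS run 2 (adjusted p = 0.002). Btg2, an antiproliferative gene, rose by 1.61 and had 0.88 without that run (adjusted p = 0.346). Sat1, the enzyme that starts polyamine breakdown, rose by 1.55 and had 1.28 without it (adjusted p = 0.101). Cdkn1a (0.09) and Bax (0.12), both classical p53 targets, did not pass.

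Of the list of tubular injury and repair genes, 4 of 18 rose and none fell (median 0.57), beside 1.94% of all genes that rose and 0.0453% that fell. Spp1, which encodes the secreted phosphoprotein osteopontin, was 3110, 4727 and 5729 in RM-HS, against 459, 882 and 1229 in HS. Every RM-HS ROI was above every HS ROI. The difference was 2.63 ± 0.52 (SE, log2, adjusted p = 0.000235), while Sham medulla on plate C was 1.15 lower than on plate E, opposite in direction to the rise. Hbegf, an epidermal growth factor receptor ligand, rose by 1.43 (0.79 and not called without HS run 2), and S100a11 and the chaperone gene Clu rose by 1.52 and 1.34. In Sham medulla S100a11 was 92.9 to 130 on plate C and 166 to 260 on plate E, opposite in direction to its rise. Hbegf signal in HS (7.27 to 35.4) reached below the negative probe (14.8 to 21.1 in HS ROIs). Havcr1, the gene of kidney injury molecule 1, did not pass at 0.34.

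The metallothioneins, small proteins that bind zinc and copper, both rose. Mt2 was 7134, 7881 and 10081 in RM-HS, against 1679, 2151 and 2579 in HS, with a difference of 2.0 ± 0.33 (SE, log2, adjusted p = 5.61e-06). Mt1 was 1128, 1329 and 1546 in RM-HS, against 385, 449 and 589 in HS, and rose by 1.37 (adjusted p = 0.00012). Neither gene overlapped between the groups, and their probes may share signal because the genes are close copies. With Txn1, which lost its call without HS run 2 (adjusted p = 0.205) and without the plate term, these were the 3 of 14 NRF2 and metallothionein genes that rose (median 0.42), while Nqo1 (0.08) and Gclm (0.47) did not pass. Txn1 signal in HS (7.27 to 34.9) reached below the negative probe (14.8 to 21.1 in HS ROIs). Fth1, the heavy chain of ferritin, was 2281, 2532 and 3527 in RM-HS, against 858, 993 and 1055 in HS, and rose by 1.98 as the single call among 10 genes of iron and heme handling.

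Further lists held secreted and matrix genes and stress of the endoplasmic reticulum. In the first, 1 of 13 rose (median 0.45): Timp1, an inhibitor of metalloproteinases, by 1.03 (adjusted p = 0.00649, and 0.0759 without HS run 2). In the second, the integrated stress and unfolded protein responses, 2 of 15 rose (median 0.44), Atf3 and Manf (1.10, but 0.81 and adjusted p = 0.592 without HS run 2). Atf4 (0.71) and Ddit3 (-0.17) of that pathway did not pass. The urokinase gene Plau was the 1 call of 5 in coagulation and fibrinolysis (1.48, but 0.74 and adjusted p = 0.979 without HS run 2). In Sham medulla Plau was 47.7 to 69.9 on plate C and 75.7 to 99.6 on plate E, opposite in direction to its rise. H2-Ab1 was the 1 call of 6 in complement and antigen presentation (1.29, with adjusted p = 0.0597 without the plate term).

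Actin cytoskeleton genes had the highest median of the lists with at least 5 members tested, and also moved with the plates. Of 22 tested, 13 rose and none fell, with a median of 1.07. Tpm3, a tropomyosin gene, was 80.8, 93.2 and 107 in RM-HS, against 29.1, 46.2 and 58.2 in HS, without overlap, and rose by 1.62 (adjusted p = 7.16e-07). Tmsb4x, which encodes an actin-sequestering peptide, rose by 1.5, Myh9 by 1.41 and Actb by 1.24, of which Myh9 (adjusted p = 0.082) and Actb (adjusted p = 0.197) were not called without HS run 2. In Sham medulla 15 of the 22 were lower on plate C than on plate E at an unadjusted p under 0.05, beside 29.9% of all genes that differed in either direction. Without the plate term 7 rose and 1 fell (median 0.50), and without HS run 2 only 3 rose (median 0.70).

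**Figure D3:**
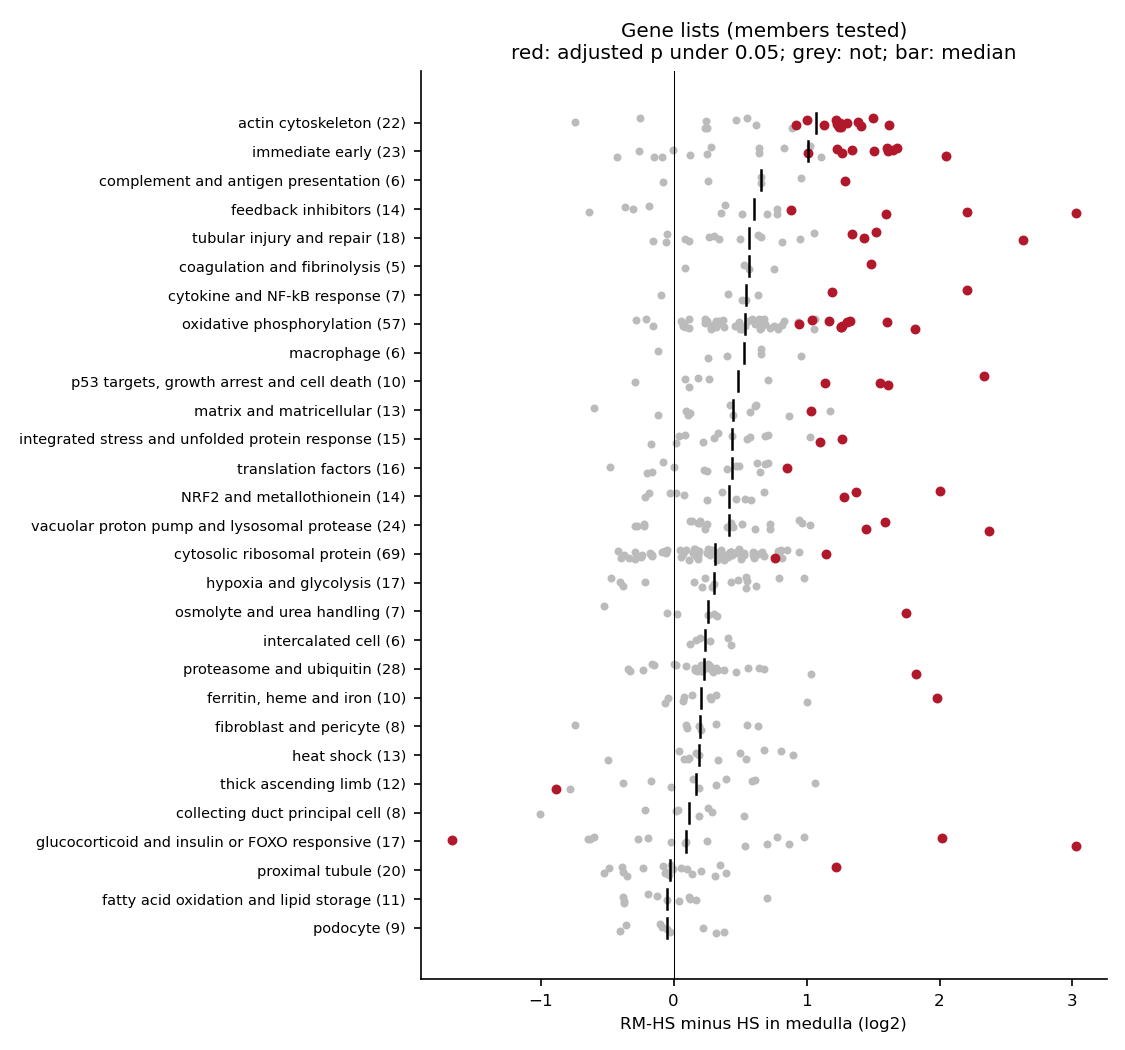
RM-HS minus HS in medulla (log2) for every tested member of the gene lists with at least 5 members, with the number tested after each name, called members in red and the median as a bar. Medians of actin cytoskeleton (1.07) and immediate early genes (1.01) lie at the top, and those of podocyte and fatty acid genes near -0.05.

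Oxidative phosphorylation subunits gave 10 rises and no fall among 57 tested (median 0.53). Atp5b, a catalytic subunit of ATP synthase, was 287, 332 and 372 in RM-HS, against 153, 201 and 263 in HS. The groups did not overlap, and the fitted difference was 1.82 (adjusted p = 0.000902). Without the plate term it was 0.37 (adjusted p = 0.676), and plate C minus plate E was -1.31 in Sham medulla. In Sham medulla 46 of the 57 were lower on plate C at an unadjusted p under 0.05, beside 29.9% of all genes that differed in either direction. Without the plate term 1 of the 57 rose (median 0.13), and without HS run 2 it was also 1. Ndufa8, a subunit of complex I, was called without the plate term (1.09, adjusted p = 9.48e-05) but not without HS run 2 (0.99, adjusted p = 0.096). Its lowest HS signal (14.5) lay below the negative probe (14.8 to 21.1 in HS ROIs). Cytosolic ribosomal protein genes had 2 rises in 69 (median 0.31), Rps13 and Rps24, near the 1.94% of all genes that rose. Of the 69, 32 were lower on plate C in Sham medulla, beside the same 29.9% of all genes. None was called without the plate term or without HS run 2. With medulla ROIs alone and the plate term, 23 of the 69 rose and 1 fell. In that fit 39 of the 57 oxidative phosphorylation genes rose, beside 609 of all 8827 genes. The part of plate in these lists cannot be told apart from the Sham well run that carries plate E.

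Over all genes, 2635 of 8827 (29.9%) differed between plates C and E in Sham medulla at an unadjusted p under 0.05, and 1011 (11.5%) at an adjusted p under 0.05. Of the 171 rises, 99 were among the 2635 (57.9%). For 95 of the 99 the Sham signal was lower on plate C, opposite in direction to the rise, and for 4 of them, Igfbp1 included, it was higher. A rise given in this report without its Sham plate values may be among the 99. Of all 2635 genes, 1936 had a Sham difference opposite in sign to their fitted difference and 699 the same sign. With RM-HS on plate C and HS on plate E, a plate term lower on plate C raises the fitted difference. Opposite signs therefore arise in part from the fit. Without the plate term 125 of the 175 calls were shared, and the median of the 175 was 0.89. Of the 4 falls, 2 differed between the Sham plates: Tsc22d3 was higher and Ppp1r1a lower on plate C. The 3 Sham ROIs on plate E are also a single well run, so that plate and run cannot be told apart.

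**Figure D4:**
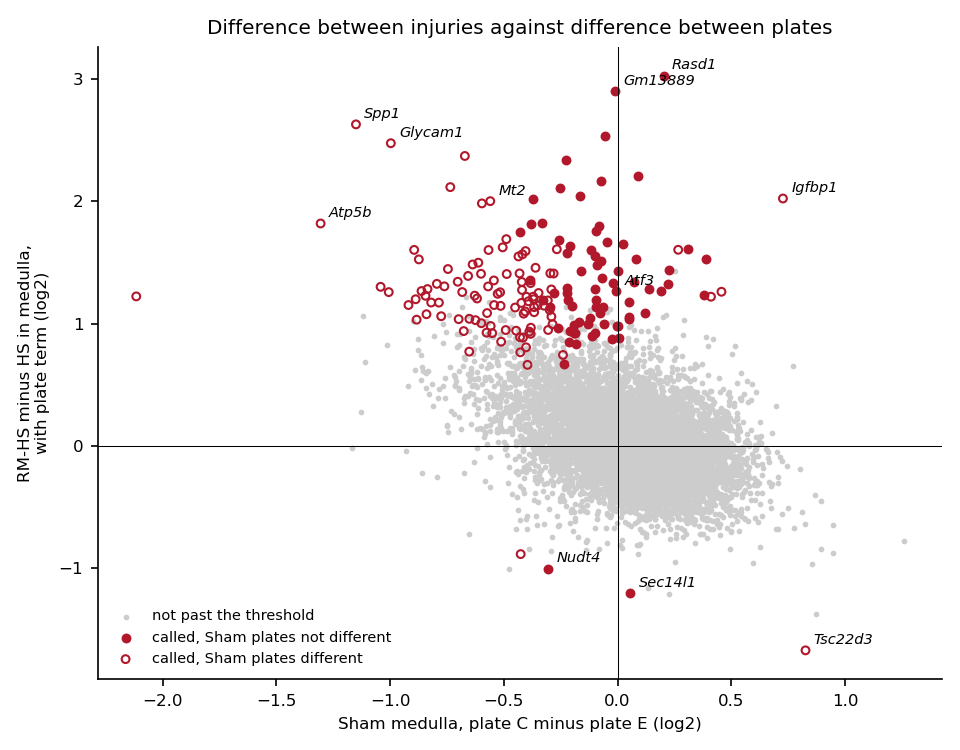
RM-HS minus HS in medulla with the plate term (vertical, log2) against plate C minus plate E in Sham medulla (horizontal, log2) for 8827 genes. Open red circles are called genes that differed between the Sham plates and filled ones called genes that did not. Most open circles lie left of 0, Igfbp1 lies at 0.73 and Atp5b at -1.31, and Gm13889 and Atf3 lie at -0.01.

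In the list of the vacuolar proton pump and lysosomal proteases, 3 of 24 rose. Ctsl, the gene of the lysosomal protease cathepsin L, was 212, 273 and 348 in RM-HS, against 29.1, 60.9 and 71.2 in HS, and rose by 2.37 (adjusted p = 5.61e-06). With the proton pump subunit genes Atp6v1b2 (1.59, but adjusted p = 0.266 without HS run 2) and Atp6v0c (1.45) it made up the 3 rises (median of the list 0.42). In Sham medulla Ctsl was 39.7 to 51.5 on plate C and 68.9 to 77.8 on plate E. Atp6v0c was 106 to 216 on plate C and 227 to 260 on plate E there. Both plate differences were opposite in direction to the rise. The lowest HS signal of Atp6v1b2 (19.4) lay within the range of the negative probe in HS ROIs (14.8 to 21.1). Ubb, a polyubiquitin gene, was the 1 call of 28 proteasome and ubiquitin genes (1.82), and Eif1 the 1 call of 16 translation factors (0.85, but 0.34 without the plate term and adjusted p = 0.89 without HS run 2).

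Of the 10 largest rises, Gm13889, Tsc22d1, Glycam1 and Epcam belonged to none of these lists. Gm13889, named by its mouse identifier, was 200, 308 and 379 in RM-HS, against 14.5, 51.3 and 80.0 in HS, and rose by 2.90 ± 0.38 (SE, log2, adjusted p = 6.39e-09). Tsc22d1, a relative of Tsc22d3, rose by 2.53 where Tsc22d3 fell. Glycam1 rose by 2.47 and Epcam, an epithelial adhesion gene, by 2.12. Nampt, the rate-limiting enzyme of NAD salvage, was 130.8, 157 and 187 in RM-HS, against 14.5, 39.0 and 53.5 in HS, and rose by 2.11 (adjusted p = 6.39e-09). The lowest HS values of Gm13889 (14.5), Nampt (14.5) and Glycam1 (20.5) lay within or below the range of the negative probe in HS ROIs (14.8 to 21.1). Gm13889, Nampt, Rasd1, Socs3, Gadd45a, Zfp36, Zfp36l1 and Tpm3 were among the 16 genes called in all 23 alternative settings.

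Of the segment and transport genes, few passed. Thick ascending limb genes had 1 fall in 12 and no rise (median 0.17, and -0.04 without HS run 2). That fall was Ppp1r1a, an inhibitor of protein phosphatase 1, at 111, 119 and 127 in RM-HS, against 202, 241 and 329 in HS. The groups did not overlap, and the difference was -0.88 ± 0.26 (SE, log2, adjusted p = 0.0472), called in 12 of 23 settings and not without HS run 1 (adjusted p = 0.258). Slc12a1, the salt cotransporter of this segment, did not pass at -0.02. Slc5a3, the inositol transporter that loads medullary cells with osmolyte, was 1210, 1413 and 1913 in RM-HS, against 361, 464 and 582 in HS. It rose by 1.75 (adjusted p = 0.00155) as the 1 call of 7 osmolyte and urea genes (median 0.26, and -0.08 without HS run 2), among which Nfat5, the transcription factor of the osmotic response, did not pass at -0.52. The bicarbonate cotransporter Slc4a4 was the 1 rise among 20 proximal tubule genes (1.22, median of the list -0.03), and it was not called without HS run 1 (adjusted p = 0.242).

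Aqp2, the water channel of the collecting duct, was 140, 175 and 190 in RM-HS, against 233, 321 and 457 in HS. The ROIs did not overlap, but the difference of -1.0 did not pass (adjusted p = 0.255), and none of the 8 collecting duct genes did. Lists with no call were also intercalated cell (6 tested), distal convoluted tubule (4), heat shock (13), hypoxia and glycolysis (17), fatty acid oxidation (11), endothelial (4), fibroblast (8), macrophage (6), neutrophil (2), lymphocyte (1), erythroid (2), muscle (4), podocyte (9), urothelial (2) and cell cycle (3). Some of these results depended on the fit. With medulla ROIs alone 6 heat shock, 4 hypoxia and glycolysis, 2 intercalated cell and 2 macrophage genes rose, beside 609 of all 8827 genes. Fatty acid oxidation, endothelial, neutrophil, lymphocyte, urothelial and cell cycle lists had no call in that fit either. Of the collecting duct genes, 1 rose in that fit and 1 fell without the plate term. The hemoglobin gene Hba-a1 was 875, 1020 and 8125 in RM-HS, against 327, 592 and 871 in HS, with RM-HS run 2 at a median of 8108. Its difference was 0.66 (adjusted p = 0.856), and its part in other results was not tested.

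Besides Tsc22d3 and Ppp1r1a, 2 genes fell. With 1 mean per well run 24 genes were called, all higher in RM-HS, so that none of the 4 falls was called. Nudt4, a hydrolase of diphosphoinositol phosphates, was 164, 178 and 194 in RM-HS, against 248, 397 and 554 in HS. All RM-HS ROIs lay below the lowest HS ROI, and the difference was -1.0 ± 0.24 (SE, log2, adjusted p = 0.00649), or -1.43 without HS run 2, but it was not called without HS run 1 (adjusted p = 0.22). Sec14l1, a lipid-binding protein gene, was 54.6, 66.1 and 75.1 in RM-HS, against 61.8, 153 and 322 in HS. The groups overlapped, with HS run 2 (median 62.0) as low as RM-HS and HS run 1 (median 235) high. The difference was -1.20 with both HS runs (adjusted p = 0.00623) and -2.10 without HS run 2 (adjusted p = 4.68e-08), and it was not called without HS run 1 (adjusted p = 0.555).

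The same difference was then set against its mean in cortex, corticomedullary junction and glomeruli, a contrast in which a plate effect common to all areas cancels. HS well run 3 has ROIs in these areas but none in medulla, so differences between HS runs do not cancel in it. Of 8827 genes, 122 passed (1.38%), 97 with a higher (1.1%) and 25 with a lower difference in medulla (0.283%), and 60 of the 175 genes called in medulla passed with the same sign. For Rasd1 the difference between RM-HS and HS in medulla was 2.28 ± 0.24 (SE) above its mean in the other areas (adjusted p = 3.32e-13). The difference was 3.03 in medulla, 0.70 in cortex, 1.55 at the junction and -0.02 in glomeruli. For Igfbp1 the difference in medulla was 1.90 ± 0.28 above that mean (adjusted p = 3.73e-07), with 2.02 in medulla, -0.30 in cortex, 0.80 at the junction and -0.14 in glomeruli. Nampt (1.75) and Tcim (1.52) also passed. For both metallothioneins the difference between RM-HS and HS was larger in medulla than its mean in the other areas, Mt1 by 1.0 and Mt2 by 0.92.

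Atf3 went the other way without passing, at -0.61 relative to the other areas (adjusted p = 0.217). It rose by 2.73 in cortex and 2.11 at the junction, against 1.27 in medulla. All genes called between RM-HS and HS were 0.464% in cortex, 1.3% at the junction and 2.95% in glomeruli. Zfand2a, a heat-inducible gene that did not pass in medulla (0.89, adjusted p = 0.15), rose by 2.59 in cortex. Its difference in medulla was below its mean in the other areas (-1.03, adjusted p = 0.003). Gadd45a (0.25, adjusted p = 0.686), Junb (0.08) and Spp1 (0.56) did not pass this contrast. Without HS run 2 it called 49 genes, and with 1 mean per well run 10.

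**Figure D5:**
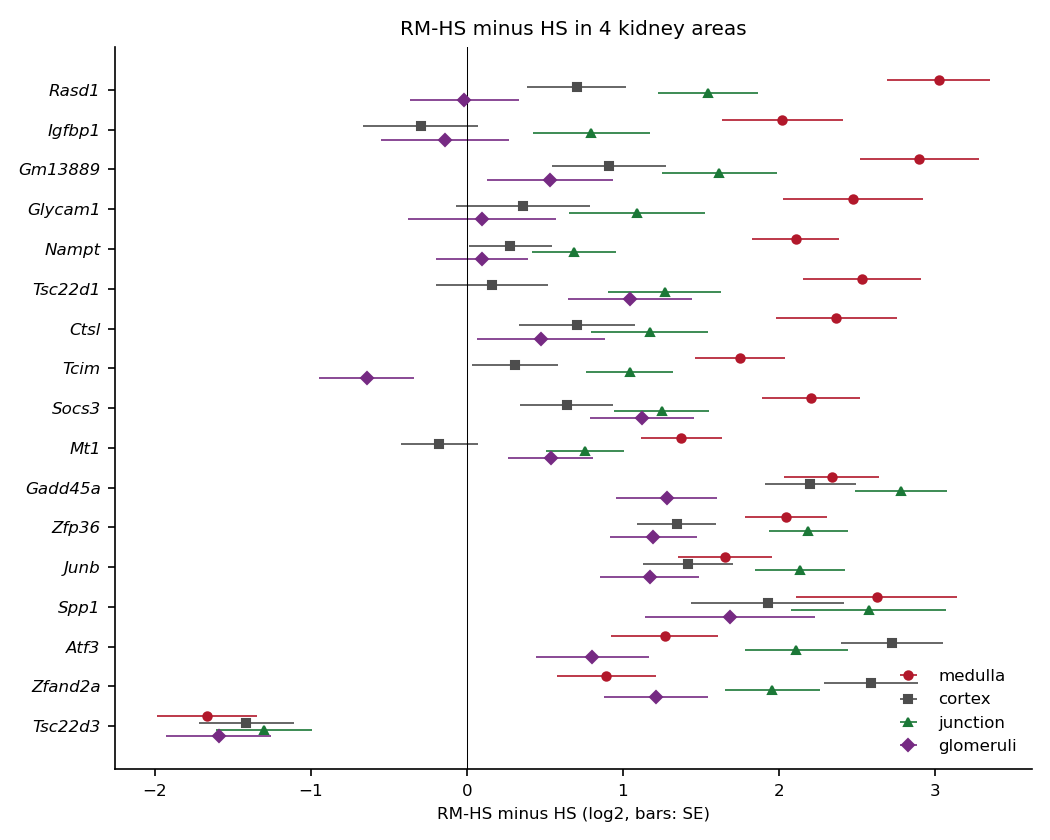
RM-HS minus HS (log2) with its standard error in medulla, cortex, junction and glomeruli for selected genes that rose or fell in medulla or differed between areas. Rasd1, Igfbp1 and Nampt have their highest value in medulla (3.03, 2.02 and 2.11), Atf3 and Zfand2a in cortex (2.73 and 2.59), and Tsc22d3 is below 0 in all 4 areas.

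The remaining medulla groups place these values. These comparisons share samples, so their values are given side by side. Calls against Sham were 4.5% of genes for RM-HS, 0.374% for HS and 5.96% for RM, and 0.589% for RM-HS against RM. Rasd1 was 3.28 above Sham in RM-HS, 0.26 in HS and 2.25 in RM, and RM-HS was 1.03 above RM (adjusted p = 0.003), both on plate C. Igfbp1 was 3.92 above Sham in RM-HS, 1.90 in HS (adjusted p = 0.000329) and 2.50 in RM, and RM-HS was 1.42 above RM (adjusted p = 0.000165). Its signal in RM-HS (median 1478) was followed by RM (489), HS (219) and Sham (82.6), and RM and HS ROIs did not overlap, with RM at 355 or more and HS at 302 or less. Gm13889 and Gadd45a were also higher in RM-HS than in RM, by 1.69 and 1.35 (adjusted p = 1.45e-06 for both). Atf3 (0.37), Socs3 (0.15), Spp1 (0.21) and Mt2 (0.33) did not pass between RM-HS and RM. Tsc22d3 was 1.52 above Sham in HS (adjusted p = 0.000373) and -0.14 from Sham in RM-HS.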

How the data were processed

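The deposited table holds signal for 9271 genes and 1 negative probe in 132 ROIs, which the authors scaled so that the 75th percentile of each ROI is 58.2, as the values show. Human builds (GRCh38, hg38) are listed in the submitters' processing notes, with no role, and no software is named in them. Each gene value was a whole multiple of 1 step per ROI (100% within 1e-04 reads), and the reads so recovered gave the depths and an edgeR 4.0.16 alternative. Genes were kept where 10% or more of the ROIs exceeded 2 times their negative probe (8827). In limma 3.58.1 (R 4.3.3, statmod 1.5.0), the ROIs of plates C and E were fitted on log2(signal + 1) with 16 means of group and area and a plate term. The well run was a random block (consensus correlation 0.132), with trended variances and two-sided tests. The ROI on plate A was left out. Fold changes on this scale understate those of low genes. The plates were compared in Sham medulla alone with limma.

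Genes named are Igfbp1, Rasd1 and Atf3, the 10 largest rises and 10 largest falls among calls, up to 3 called members of each list (or the 2 of lowest p), and the 5 lowest p against the other areas. List members beyond these were chosen after their values were seen. Members and lists were chosen with earlier results of these data known. The table's mouse symbols matched rat RefSeq symbols for 8048 of 8827 genes. No ROI duplicated another. A few genes are not reported here.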

Additional observations from a re-analysis of the deposited data

Results flagged for a closer look

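In 11 of 158 sets of medulla ROIs (1 gene in 1 group) a single ROI lay far from the rest, and chance gives about 1 in 20. Of these, 9 were in HS well run 2, the shallow run: low values of Gm13889 (14.5), Ctsl (29.1), Atp6v1b1 (3.63), Dusp6 (3.63), Txn1 (7.27), Acaa2 (14.5), Cd3e (14.5) and Krt7 (34.9), and a high value of Podxl (65.4). In RM-HS, 1 ROI of run 2 was high for Slc5a3 (1913) and 1 of run 3 was low for Ckm (32.0).

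For 24 of the named genes the difference between RM-HS and HS in medulla was unlike its mean in the other areas. Values of medulla minus other areas (log2) were highest for Rasd1 (2.28), Glycam1 (1.96), Igfbp1 (1.90), Gm13889 (1.88), Nampt (1.75), Tsc22d1 (1.71), Ctsl (1.59) and Tcim (1.52). Dusp6 had 1.28, Plau 1.21, Socs3 1.2, Epcam 1.04, Slc4a4 1.0 and Mt1 1.0. Fth1 had 0.99, Mt2 0.92, Ddit4 0.86, Ndufa8 0.78, Myh9 0.73, Atp6v0c 0.72, Tpm3 0.70 and Zfp36l1 0.66. The value was below 0 for Zfand2a (-1.03) and Nudt4 (-0.74).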

How the results depend on the processing

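The 175 calls numbered 315 without the plate term, 750 with medulla ROIs alone and the plate term, 1116 with RM-HS and HS medulla ROIs alone, 865 without the block, 24 with 1 mean per well run, 523 with quantile normalisation and 1023 with edgeR. Leaving out 1 well run gave 64 to 877, namely 64 without HS 2, 78 without Sham 1, 114 without RM-HS 2, 324 without HS 1, 365 without Sham 3, which also removes the plate term, and 877 without HS 3, which has no medulla ROI. Of the 175 genes, 174 or 175 kept their sign in each setting that measured them all. The median of all genes was -0.39 with the negative probe subtracted and 0.11 without the plate term. The 122 genes unlike the other areas numbered 10 with run means, 19 with the negative probe subtracted, 231 with quantile normalisation and 334 with edgeR, and 49 (without HS 2) to 614 (without HS 1) with 1 run left out, with 67 without RM-HS 1, 71 without RM-HS 2 and 191 without Sham 3. The fits of medulla alone give no value for it. The 2635 genes differing between Sham plates numbered 1264 with the stricter filter, where 4233 genes were tested, 1104 from the plate term of the fit over all areas, and 1596 without Sham 1 to 3144 without Sham 2. RM-HS and HS are separate groups of rats and were compared unpaired. Areas could not be paired by animal because the labels carry no replicate numbers. The cause of these shifts was not tested.

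Of 1803 values of named genes under 23 settings, 1567 kept direction and side of the threshold, 136 lost the call and 69 gained one. The other 31 changed sign, none of them of a called gene. Without the plate term these were Hspe1 (-0.027), Ptprb (-0.068), Cd3e (0.48), Slc4a1 (-0.039), Ckm (0.083), Podxl (0.023), Ccnd1 (-0.15) and Cdk1 (0.14). With RM-HS and HS medulla alone they were Cd3e (0.34), Ckm (0.064) and Ccnd1 (-0.023), and with all medulla ROIs Retnlg (-0.098) and Cd3e (0.093). With the negative probe subtracted they were Rhbg (-0.038), Retnlg (-0.24) and Slc4a1 (-0.28), with quantile normalisation Retnlg (-0.0018) and Hba-a1 (-0.39), and with edgeR Retnlg (-0.088). With 1 well run left out the ranges were -0.033 to 1.12 for Hspe1, -0.071 to 0.27 for Ptprb, -0.33 to 0.48 for Cd3e, -0.28 to 1.57 for Hba-a1 and -0.040 to 0.28 for Slc4a1. They were -0.39 to 0.083 for Ckm, -0.48 to 0.025 for Podxl, -0.15 to 0.30 for Ccnd1 and -0.23 to 0.19 for Cdk1. Depth limits HS run 2, whose lowest genes held 1 read.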

Other observations

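Among the named genes, 2 that were higher in RM-HS than in HS medulla were lower in RM-HS than in RM medulla. Timp1 was -0.95 from RM (adjusted p = 0.0001) and 1.03 above HS, and S100a11 was -0.97 from RM (adjusted p = 0.0156) and 1.52 above HS. Ddit4, an inhibitor of mTOR signalling, passed between RM-HS and RM (0.79, adjusted p = 0.023) and missed between RM-HS and HS (0.98, adjusted p = 0.0594).

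Over the 15 medulla ROIs of RM-HS and HS, after each group's mean was taken out, the genes most like Igfbp1 were Gadd45a (Pearson r = 0.953), H3f3b (0.948) and Idh2 (0.928). Those most like Rasd1 were Calm2 (0.940), Usp2 (0.918) and Bhlhe40 (0.887), and those most like Atf3 were Man1c1 (0.879), Gm52523 (0.823) and Fbxo45 (0.818). The ROIs share libraries, plates and well runs, and these values are a description.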
